A study of Homo sapiens with 8 samples.

Results

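Described here are genes of the RAS-RAF-MEK-ERK cascade, read in the MM1.S and NCI-H929 multiple myeloma cell lines with and without a hairpin against SIRT6. The genes were NRAS, HRAS, BRAF, ARAF, MAP2K1, MAP2K2 and MAPK3, 7 in all, chosen with earlier results of these data known. Each was sought as the transcript cluster that carries its symbol alone in the platform annotation, and this lookup used no measured value. Of these, 5 had such a cluster (HRAS, ARAF, MAP2K1, MAP2K2 and MAPK3), 1 each, out of 14884 gene symbols that had one. NRAS and BRAF had no cluster that carried their symbol alone in the annotation used here and were not analysed. Clusters with several symbols were not used for any gene. All 5 passed the filter on dim genes and were tested.

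The cascade carries signals from receptors to the nucleus. RAS proteins are small GTPases of the inner plasma membrane that are active when bound to GTP, active RAS recruits RAF kinases, RAF phosphorylates the MEK kinases, and MEK phosphorylates the ERK kinases, which then act on transcription factors and other kinases. Mutations of RAS genes are frequent in multiple myeloma, a cancer of plasma cells, and both lines are known to carry one. HRAS is a RAS GTPase, ARAF a RAF kinase, MAP2K1 and MAP2K2 encode MEK1 and MEK2, and MAPK3 encodes ERK1. SIRT6 is an NAD-dependent deacetylase of chromatin that has been reported to repress genes of this pathway in myeloma, which is the question that the comparison of constructs bears on here.

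The groups were MM1.S with the SIRT6 hairpin (shSIRT6), MM1.S with a scramble hairpin, NCI-H929 with shSIRT6 and NCI-H929 with scramble, with 2 arrays each and 8 in all. All groups carry a hairpin construct, and no untransduced cells were among them. Total RNA was hybridised to an Affymetrix Human Gene ST array, and the deposited values are log2 levels, on which a difference of 1 is a doubling. The labels do not state whether replicate arrays were separate cultures, so the tests rest on array-to-array spread that may be purely technical. Genes were compared with limma, fitted to 12734 genes on all 8 arrays together, and called means an adjusted p (Benjamini-Hochberg) below 0.05. A level of one gene on these arrays cannot be set against a level of another, because the probes differ.

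Array medians ran from 3.88 to 3.97, and arrays of one group correlated at 0.989 to 0.992. The plasma cell markers IRF4, XBP1, MZB1 and SLAMF7 lay between 10.02 and 11.74 on every array, and SDC1 and CD38 between 7.96 and 9.28. POU2AF1 was lower, at 5.19 to 5.48, and FCRL5 read 6.87 to 7.41 in NCI-H929 but 2.72 to 3.35 in MM1.S. Of the fixed plasma cell markers 8 of 11 were tested. With shSIRT6 in MM1.S 3 were higher and 5 lower, and 1 was called (limma, SDC1, higher), where 1.33% of all genes were. Of the 8, 3 had an unadjusted p below 0.05 in MM1.S, where 19.6% of all genes had one. In NCI-H929 2 were higher and 6 lower, 0 were called and 0 had an unadjusted p below 0.05 (limma). Over all genes 0.0236% were called in NCI-H929 and 14.5% had an unadjusted p below 0.05. Named markers of other cell types read from 1.99 for DCN to 5.72 for KRT8 on single arrays, apart from KRT18 at 7.73 to 8.14, and none of their tested genes was called with the hairpin in either line. The 5 tested T and NK cell markers, at 3.57 to 5.47, were all higher with shSIRT6 in NCI-H929 (median 0.275, 1 at an unadjusted p below 0.05), as were the 4 epithelial markers in both lines (medians 0.1225 in MM1.S and 0.2225 in NCI-H929). Their part in the results below was not tested.

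SIRT6 itself was lower with its hairpin on every array, by less than the test needed. It read 5.60 and 5.78 with shSIRT6, against 6.09 and 5.88 with scramble, in MM1.S. In NCI-H929 it read 6.25 and 6.31 with shSIRT6, against 6.53 and 6.97 with scramble. The arrays of the 2 constructs did not overlap in either line, as for 50.7% of all genes tested in MM1.S and 46.6% in NCI-H929. The log2 differences, −0.295 ± 0.16 (SE) for MM1.S and −0.47 ± 0.16 for NCI-H929, did not pass (limma, adjusted p = 0.355 and 0.276). What follows is therefore a comparison of arrays labelled by construct, with a lower SIRT6 level that did not pass the test in either line. Between the lines SIRT6 was called higher in NCI-H929, by 0.59 ± 0.16 with shSIRT6 and 0.765 ± 0.16 with scramble (limma, adjusted p = 0.0231 and 0.00729). Of all genes 37.9% and 38.3% were called there. The shSIRT6 call was lost in 3 of 18 alternatives. The mean of SIRT6 in NCI-H929 with shSIRT6 (6.28) lay above that in MM1.S with scramble (5.985).

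The sequences before the start sites of HRAS and MAPK3, whose levels differed most between the groups below, and of MAP2K1, which went the other way in MM1.S, are shown for context. Each is the 250 bases upstream of the RefSeq start at the 5′ end of the gene in GRCh38.p14, read 5′ to 3′ on the gene's strand. Capitals mark GGGCGG (the GC box bound by SP and KLF factors) or CCGGAAG (an ETS family site, the family of several ERK substrates). Each motif was searched on both strands.
HRAS, chr11:535577-535826, minus strand: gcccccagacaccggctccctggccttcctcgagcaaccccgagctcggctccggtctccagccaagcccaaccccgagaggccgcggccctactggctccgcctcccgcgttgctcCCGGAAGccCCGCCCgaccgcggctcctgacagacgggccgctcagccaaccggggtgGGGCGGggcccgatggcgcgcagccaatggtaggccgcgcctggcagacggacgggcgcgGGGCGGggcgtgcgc
MAPK3, chr16:30123221-30123470, minus strand: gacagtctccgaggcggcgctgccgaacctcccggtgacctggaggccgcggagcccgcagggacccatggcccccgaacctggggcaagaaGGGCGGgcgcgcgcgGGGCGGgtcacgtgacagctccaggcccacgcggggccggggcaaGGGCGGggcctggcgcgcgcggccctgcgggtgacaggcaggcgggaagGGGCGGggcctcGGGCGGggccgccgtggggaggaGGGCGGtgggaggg
MAP2K1, chr15:66386662-66386911, plus strand: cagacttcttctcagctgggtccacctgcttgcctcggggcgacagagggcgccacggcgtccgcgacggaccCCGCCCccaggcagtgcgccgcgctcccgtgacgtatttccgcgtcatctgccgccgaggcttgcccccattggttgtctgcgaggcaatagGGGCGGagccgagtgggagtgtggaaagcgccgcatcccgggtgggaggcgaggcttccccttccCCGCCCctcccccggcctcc
MAPK3 held 6 GC boxes, and HRAS and MAP2K1 held 3 each. Over 34943 upstream windows of the same length, 42.5% held at least 1, 13.8% at least 3 and 2.2% at least 6. The window of MAP2K2 at the start of the gene held 2 and that of ARAF 0. MAP2K1 and MAP2K2 each have a further RefSeq start inside the gene, not shown. Its window held 0 GC boxes in either gene, and that of MAP2K1 was 53.2% G and C. HRAS also held 1 CCGGAAG, a motif found in 8.48% of all windows and in no window of the other 4 genes. The windows shown were rich in G and C, 80.4% for MAPK3, 77.2% for HRAS and 71.2% for MAP2K1. These shares were above 97.4%, 93.8% and 82.8% of all windows or equal to them. The matches describe letters, and binding was not measured.

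With shSIRT6 none of the 5 cascade genes was called in MM1.S, where the largest difference was that of HRAS. HRAS read 6.67 and 6.65 with shSIRT6, against 6.21 and 5.96 with scramble. Both shSIRT6 arrays lay above both scramble arrays, as for 24.4% of all genes tested. The 2 shSIRT6 arrays differed by 0.02 where the scramble arrays differed by 0.25. The log2 difference was 0.575 ± 0.14 (SE, n = 2 arrays each), a 1.49-fold higher level, with a 95% interval of 0.26 to 0.89 and an unadjusted p of 0.00351 that did not pass (limma, adjusted p = 0.0888). In size it exceeded 96.1% of the genes tested. A fit that lets the spread depend on the level of a gene called it (limma with trend, adjusted p = 0.0205); over 18 alternatives the adjusted p ran from 0.0205 to 0.252.

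MAPK3, which encodes ERK1, was the other gene with an unadjusted p below 0.05 in MM1.S. It read 7.31 and 7.42 with shSIRT6, against 6.94 and 7.13 with scramble. The groups did not overlap, with shSIRT6 higher, as for 24.4% of all genes tested. The log2 difference of 0.33 ± 0.11 (SE, n = 2 each), with a 95% interval of 0.08 to 0.58, did not pass (limma, adjusted p = 0.165). Leaving out scramble replicate 1 brought it to 0.235 and leaving out scramble replicate 2 to 0.425.

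The RAF and MEK genes had unadjusted p-values above 0.05 in MM1.S. ARAF, the RAF kinase, read 7.86 and 7.98 with shSIRT6, against 7.76 and 7.72 with scramble (log2 difference 0.18 ± 0.10, SE). MAP2K1, the gene of MEK1, read 8.74 and 8.60 with shSIRT6, against 8.93 and 8.86 with scramble (−0.225 ± 0.12), and was the only one of the 5 that was lower. MAP2K2, the gene of MEK2, read 6.03 and 5.92 with shSIRT6, against 5.88 and 5.86 with scramble (0.105 ± 0.14). Their arrays did not overlap either, but 50.7% of all genes tested separated, 24.4% with shSIRT6 higher and 26.3% with shSIRT6 lower, and the differences did not pass (limma, adjusted p = 0.377 for ARAF, 0.341 for MAP2K1 and 0.712 for MAP2K2).

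Counted together in MM1.S, 4 of the 5 genes were higher with shSIRT6 and 1 lower, with a median log2 difference of 0.18, against a median of 0.005 over all genes. None was called (limma, 0 of 5; 2 at an unadjusted p below 0.05), where 1.33% of all genes were called and 19.6% had an unadjusted p below 0.05. The 2 MEK genes lay on opposite sides of 0.

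**Figure D1:**
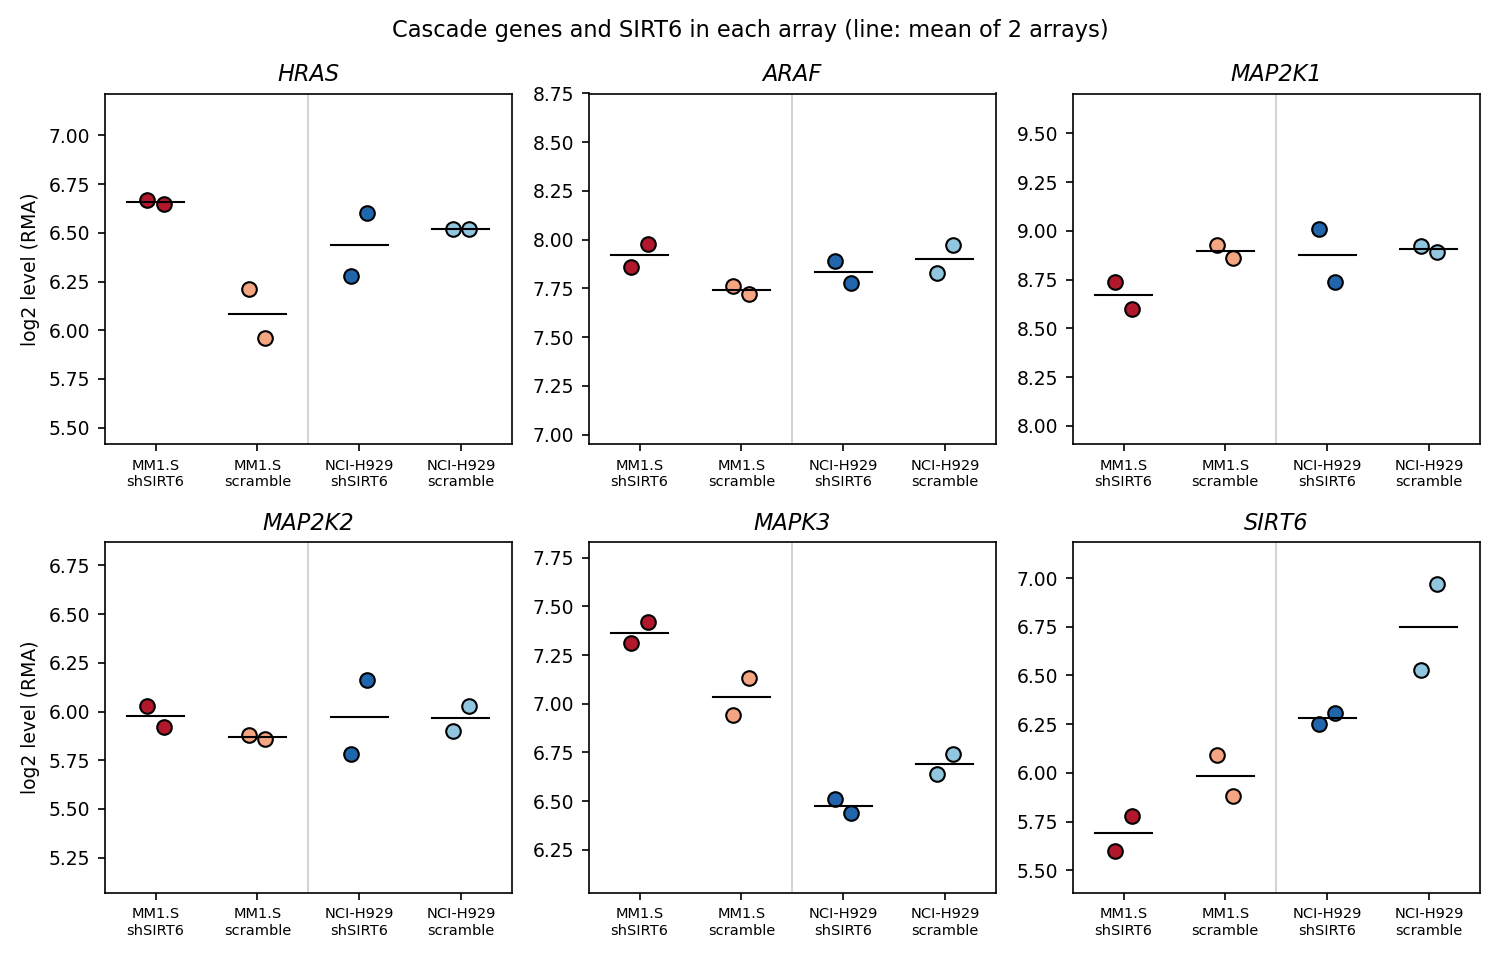
Log2 level of each cascade gene and of SIRT6 on every array (points), with the mean of the 2 arrays of a group (black line). Groups run from left to right as MM1.S shSIRT6, MM1.S scramble, NCI-H929 shSIRT6 and NCI-H929 scramble, and every panel spans the same number of log2 units. HRAS and MAPK3 sit higher with shSIRT6 than with scramble in MM1.S, and MAPK3 sits lower with shSIRT6 in NCI-H929.

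In NCI-H929 none of the 5 genes was called with shSIRT6 and none had an unadjusted p below 0.05 (limma, 0 of 5 and 0 of 5). Over all genes 0.0236% were called and 14.5% had an unadjusted p below 0.05. HRAS read 6.28 and 6.60 with shSIRT6, against 6.52 and 6.52 with scramble, so the shSIRT6 arrays lay on either side of the scramble arrays (log2 difference −0.08 ± 0.14, SE; 95% interval −0.40 to 0.24). ARAF read 7.89 and 7.78 with shSIRT6, against 7.83 and 7.97 with scramble (−0.065 ± 0.10). MAP2K1 read 9.01 and 8.74 with shSIRT6, against 8.92 and 8.89 with scramble (−0.03 ± 0.12). For these 3 genes the arrays of the constructs overlapped.

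MAP2K2 differed least and had the widest replicates. It read 5.78 and 6.16 with shSIRT6, against 5.90 and 6.03 with scramble, a log2 difference of 0.005 ± 0.14 (SE; 95% interval −0.32 to 0.33). MAP2K2 is also a neighbour of the hairpin's target on chromosome 19, with 1 gene, CREB3L3, between it and SIRT6 in the RefSeq annotation.

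MAPK3 was the 1 cascade gene whose arrays separated in NCI-H929. It read 6.51 and 6.44 with shSIRT6, against 6.64 and 6.74 with scramble, so that shSIRT6 was lower. The log2 difference was −0.215 ± 0.11 (SE, n = 2 each; limma, adjusted p = 0.405), with a 95% interval of −0.47 to 0.04, and 46.6% of all genes separated in NCI-H929. Of all genes, 6.24% separated higher in MM1.S and lower in NCI-H929, as MAPK3 did. The median over the 5 genes was −0.065, against −0.045 over all genes.

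The hairpin difference was next compared between the lines. NCI-H929 minus MM1.S, it differed by −0.655 ± 0.19 (SE) for HRAS and by −0.545 ± 0.15 for MAPK3, with 95% intervals of −1.11 to −0.20 and −0.90 to −0.19. Their unadjusted p-values were 0.0106 and 0.00854, and neither passed (limma, adjusted p = 0.233 and 0.224). ARAF differed by −0.245 ± 0.15, MAP2K1 by 0.195 ± 0.17 and MAP2K2 by −0.10 ± 0.20 (limma, adjusted p = 0.500, 0.646 and 0.858). Hence 0 of 5 genes were called (limma; 2 at an unadjusted p below 0.05), against 0.204% of all genes called and 13.8% at an unadjusted p below 0.05.

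Averaged over both lines, the hairpin differences were small. HRAS had 0.2475 ± 0.097 (SE), with an unadjusted p of 0.0357, and did not pass (limma, adjusted p = 0.206). MAP2K1 had −0.1275 ± 0.084. ARAF and MAPK3 both had 0.0575, since MAPK3 went opposite ways in the lines, and MAP2K2 had 0.055. None of the 5 was called (limma, 0; 1 at an unadjusted p below 0.05), where 0.0864% of all genes were, 11 of them lower and 0 higher, and 21.3% had an unadjusted p below 0.05.

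**Figure D2:**
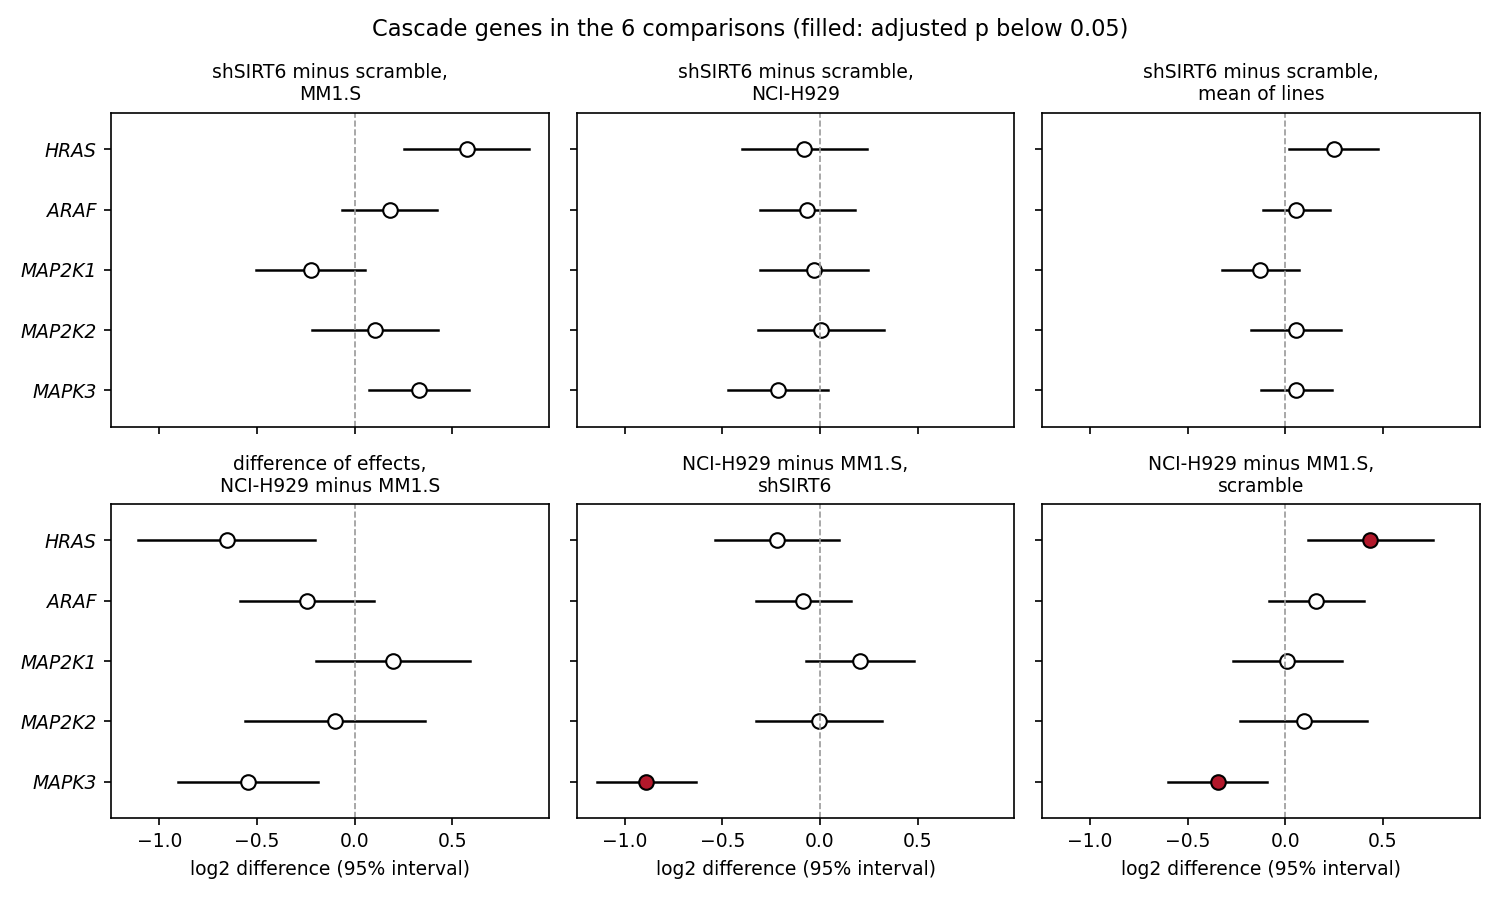
Log2 differences of the 5 cascade genes (points) with their 95% intervals from limma (lines) in 6 comparisons, 1 panel each; filled points have an adjusted p below 0.05. The filled points are MAPK3 between the lines with shSIRT6 (−0.89), and HRAS (0.435) and MAPK3 (−0.345) between the lines with scramble.

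MAPK3 was the 1 cascade gene called between the lines with both constructs. With shSIRT6 it read 6.51 and 6.44 in NCI-H929, against 7.31 and 7.42 in MM1.S. All NCI-H929 arrays lay below all MM1.S arrays, by a log2 difference of −0.89 ± 0.11 (SE, n = 2 each), a level 0.540 times that of MM1.S, and this passed (limma, adjusted p = 5.41e-04). The call held in each of 18 alternatives, with the difference between −0.945 and −0.835 and the adjusted p between 1.17e-05 and 0.00535. With scramble, on other arrays, MAPK3 read 6.64 and 6.74 in NCI-H929, against 6.94 and 7.13 in MM1.S, a difference of −0.345 ± 0.11 (adjusted p = 0.0395). That call was lost in 10 of 18 alternatives, among them the omission of any 1 array other than MM1.S scramble replicate 1 (differences from −0.44 to −0.25, adjusted p from 0.0436 to 0.193 over the 8 omissions).

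HRAS was called between the lines with scramble, close to the threshold. With scramble it read 6.52 and 6.52 in NCI-H929, against 6.21 and 5.96 in MM1.S, a log2 difference of 0.435 ± 0.14 (SE; limma, adjusted p = 0.0392). The call was lost in 9 of 18 alternatives, among them the omission of scramble replicate 2 or either shSIRT6 array of MM1.S or of either scramble array of NCI-H929 (adjusted p from 0.0248 to 0.193 over the 8 omissions), and both other normalizations. With shSIRT6 HRAS read 6.28 and 6.60 in NCI-H929, against 6.67 and 6.65 in MM1.S, the opposite order, and did not pass (−0.22 ± 0.14, adjusted p = 0.257). The change between these line differences is the difference of hairpin effects given above, which did not pass.

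For ARAF and the MEK genes no difference between the lines passed. With shSIRT6 the log2 differences, NCI-H929 minus MM1.S, were −0.085 ± 0.10 (SE) for ARAF, 0.205 ± 0.12 for MAP2K1 and −0.005 ± 0.14 for MAP2K2. With scramble they were 0.16 ± 0.10, 0.01 ± 0.12 and 0.095 ± 0.14. The 95% interval reached furthest from 0 at 0.48 for MAP2K1 with shSIRT6 and at 0.42 for MAP2K2 with scramble. Of the 5 genes 1 was called with shSIRT6 and 2 with scramble, where 37.9% and 38.3% of all genes were called. Arrays of the lines did not overlap for 2 of the 5 genes with shSIRT6 (65.7% of all genes) and for 4 with scramble (67.9% of all genes).

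Ordered by group mean, MAPK3 ran 7.365 in MM1.S shSIRT6, 7.035 in MM1.S scramble, 6.69 in NCI-H929 scramble and 6.475 in NCI-H929 shSIRT6. Of its neighbours in that order the middle pair differed by the test, with the limits given above, and the outer pairs did not pass. HRAS ran 6.66, 6.52, 6.44 and 6.085 in MM1.S shSIRT6, NCI-H929 scramble, NCI-H929 shSIRT6 and MM1.S scramble, and the 3 highest groups had no difference past the test among those compared. Group means of ARAF spanned 7.74 to 7.92, those of MAP2K1 8.67 to 8.905 and those of MAP2K2 5.87 to 5.975, with no resolved order.

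Genes around the cascade were taken from 11 lists, in all 182 symbols, of which 108 were tested. With shSIRT6 in MM1.S 3 of the 108 were called (limma), 1 higher and 2 lower, or 2.78%, against 1.33% of all genes. An unadjusted p below 0.05 was found for 30 of the 108, where 19.6% of all genes had one. Those called were regulators and effectors of RAS. RASA2, a GTPase-activating protein that switches RAS off, fell to 8.03 and 8.10 with shSIRT6, against 9.09 and 8.87 with scramble (log2 difference −0.915 ± 0.11, SE; limma, adjusted p = 0.0165). RASA4, another protein of that family, rose to 8.53 and 8.49 with shSIRT6, against 8.01 and 7.96 with scramble (0.525 ± 0.090, adjusted p = 0.0452); it has a near-identical copy in the genome, so its probes may read both. RGL1, which binds active RAS and acts on RAL GTPases, fell to 8.81 and 8.76 with shSIRT6, against 9.35 and 9.36 with scramble (−0.57 ± 0.10, adjusted p = 0.0483).

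These 3 calls depended on the processing. They were lost in 8 of 18 alternatives for RASA2, 13 for RASA4 and 15 for RGL1, and each was lost when any 1 MM1.S array was left out. The differences themselves kept their direction throughout, from −1.025 to −0.805 for RASA2, 0.43 to 0.57 for RASA4 and −0.595 to −0.53 for RGL1. In NCI-H929 the same genes had 0.04, −0.22 and −0.365, not called, and the difference between the lines did not pass (limma, adjusted p = 0.0726, 0.0912 and 0.561).

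**Figure D3:**
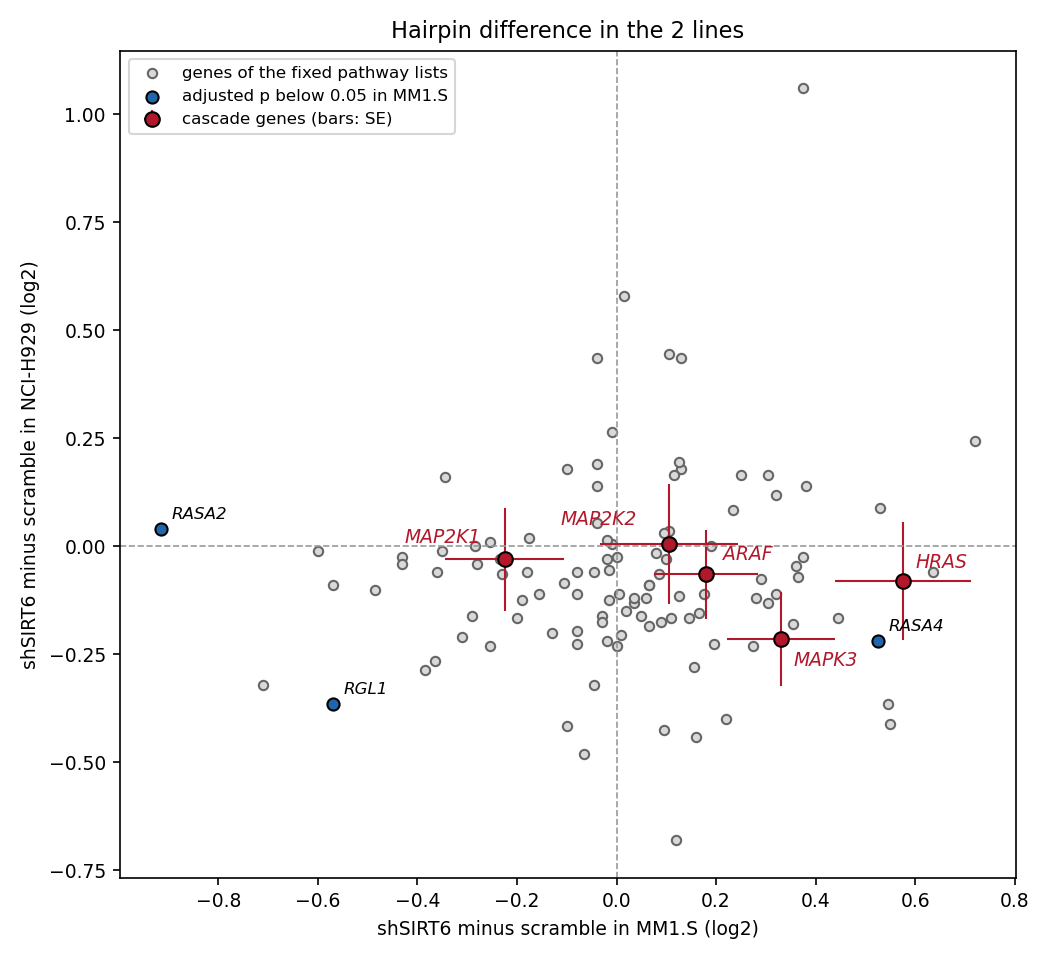
Hairpin difference in MM1.S (horizontal axis, log2) against that in NCI-H929 (vertical axis, log2) for the 5 cascade genes (red, bars are 1 SE) and the 108 tested genes of the lists (grey, blue where called in MM1.S). HRAS and MAPK3 lie to the right with values near or below 0 in NCI-H929, and the 3 called genes are RASA2, RASA4 and RGL1.

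In NCI-H929 none of the 108 genes was called with shSIRT6 (limma, 0; 16 at an unadjusted p below 0.05, where 14.5% of all genes had one), with a median of −0.09 against −0.045 over all genes. The 4 genes with the lowest p went both ways. EGR1, an immediate-early transcription factor induced by ERK signalling, had 1.06 ± 0.14 (SE; limma, adjusted p = 0.158), and CCND1, the gene of cyclin D1, had −0.68 ± 0.11 (adjusted p = 0.177). CNKSR1, a scaffold of the pathway, had 0.58 ± 0.13 (adjusted p = 0.196), and the ERK phosphatase DUSP5 had −0.44 ± 0.10 (adjusted p = 0.203). In MM1.S the ERK targets with the lowest p were not called either: ETV5, an ETS factor, had −0.71 ± 0.14 and the phosphatase DUSP4 0.55 ± 0.11 (adjusted p = 0.0636 and 0.0649). The 12 tested genes of ERK transcriptional output had medians of 0.1375 in MM1.S and −0.145 in NCI-H929. None was called in either line (limma, 0 and 0, with 5 and 3 at an unadjusted p below 0.05). Over all genes in MM1.S the median was 0.005, 1.33% were called and 19.6% had an unadjusted p below 0.05. In NCI-H929 0.0236% of all genes were called.

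Between the lines many of the genes around the cascade were called, as were many genes at large. With shSIRT6 58 of 108 were called, 31 higher and 27 lower in NCI-H929, and with scramble 59, 34 higher and 25 lower, which is 53.7% and 54.6%, against 37.9% and 38.3% of all genes. These comparisons share no array, and 48 genes were called in the same direction in both, 82.8% of the shSIRT6 calls and 81.4% of the scramble calls. Over all genes the shares were 76.1% and 75.3%.

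ERK transcriptional output was mostly higher in NCI-H929. Of 12 tested genes 9 were called higher and 1 lower with each construct, the same 10 genes, where 37.9% and 38.3% of all genes were called. The median log2 differences of the list were 1.41 with shSIRT6 and 1.32 with scramble. ETV4, an ETS factor, was higher by 2.595 ± 0.15 (SE) with shSIRT6 and by 3.03 ± 0.15 with scramble, EGR1 by 2.22 ± 0.14 and 1.535 ± 0.14, and IER2, an immediate-early gene, by 3.265 ± 0.30 and 3.58 ± 0.30. With the mean of all rows of a gene, EGR1 was higher by 0.96 with scramble. CCND1 (cyclin D1) was higher by 1.755 ± 0.11 and 2.555 ± 0.11. DUSP4 was the 1 lower, by −1.78 ± 0.11 and −0.82 ± 0.11 (limma, adjusted p from 4.63e-06 to 8.78e-04 over these genes and constructs).

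Feedback inhibitors of ERK overlap that list in part. Of 14 tested, 5 were called higher and 2 lower in NCI-H929 with shSIRT6, and 7 higher and 2 lower with scramble. The shares called over all genes were 37.9% with shSIRT6 and 38.3% with scramble. DUSP6, the cytoplasmic ERK phosphatase, read 9.46 and 9.30 in NCI-H929, against 7.55 and 7.32 in MM1.S, with shSIRT6. With scramble it read 9.45 and 9.49 in NCI-H929, against 7.88 and 8.13 in MM1.S. SPRY4, a Sprouty inhibitor of the pathway, was higher by 1.545 ± 0.16 (SE) with shSIRT6 and 1.745 ± 0.16 with scramble, and DUSP5 by 0.385 ± 0.10 and 0.985 ± 0.10 (limma, adjusted p = 0.0218 and 2.75e-04). The DUSP5 call with shSIRT6 was lost in 6 of 18 alternatives, among them the omission of MM1.S shSIRT6 replicate 1 or of either NCI-H929 shSIRT6 array (adjusted p up to 0.121).

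Regulators of RAS itself went both ways. Over all genes 37.9% were called with shSIRT6 and 38.3% with scramble. Of 7 tested GTPase-activating proteins 3 were called higher and 3 lower in NCI-H929 with shSIRT6, and 1 higher and 3 lower with scramble. RASA4 was lower by −2.33 ± 0.090 (SE) with shSIRT6 and −1.585 ± 0.090 with scramble, and RASA3 by −1.145 ± 0.10 and −0.87 ± 0.10. With the mean of all rows of a gene in place of the brightest, RASA4 had −1.29 and −0.97. RASAL3 was higher by 0.50 ± 0.094 and 1.005 ± 0.094. RASA2 was the 1 gene of the lists called in opposite directions, at 0.605 with shSIRT6 and −0.35 with scramble (limma, adjusted p = 0.00306 and 0.0337). The call with scramble was lost in 6 of 18 alternatives, among them the omission of MM1.S scramble replicate 1 or of either NCI-H929 scramble array (adjusted p up to 0.188), and that with shSIRT6 in 0 of 18. Among 14 adaptors and exchange factors 1 was called higher and 4 lower with each construct, led by RASGRP3, an exchange factor that loads RAS with GTP, which was lower by −1.665 ± 0.098 and −1.735 ± 0.098.

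Scaffolds and RAF regulators had 6 of 14 genes called higher and 5 lower in NCI-H929 with shSIRT6, and 7 higher and 4 lower with scramble. Among all genes tested 37.9% and 38.3% were called. The kinase chaperone CDC37 was higher by 0.835 ± 0.093 (SE) with shSIRT6 and 0.99 ± 0.093 with scramble. LZTR1, which directs RAS proteins to degradation, was higher by 0.80 ± 0.096 and 0.895 ± 0.096, and PEBP1, an inhibitor of RAF, by 0.81 ± 0.10 and 1.00 ± 0.10 (limma, adjusted p from 1.63e-04 to 6.09e-04 over the 3 genes). In a separate list, the rest of the cascade, 3 genes were tested, and 0 were called higher and 1 lower with each construct, MAP3K8. MAP3K8, a kinase that can activate MEK in place of RAF, was lower by −0.565 ± 0.13 and −0.955 ± 0.13 (adjusted p = 0.0113 and 9.45e-04), and its call with shSIRT6 was lost in 2 of 18 alternatives, the omission of shSIRT6 replicate 1 of either line (adjusted p up to 0.0712).

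For the remaining lists the counts are given beside the 37.9% of all genes called with shSIRT6 and 38.3% with scramble. Of 10 tested ERK substrates 2 were called higher and 2 lower with shSIRT6, and 3 higher and 3 lower with scramble. BCL2L11, the death factor BIM that ERK marks for degradation, was lower in NCI-H929 by −1.605 ± 0.097 (SE) with shSIRT6 and −1.62 ± 0.097 with scramble, and MYC was higher by 0.70 ± 0.094 and 0.815 ± 0.094. In the other MAP kinase cascades 3 of 19 genes were called higher and 4 lower with shSIRT6, and 5 higher and 2 lower with scramble, with MAPK13, a p38 kinase, lower by −2.45 ± 0.17 and −2.05 ± 0.17. Among RAS relatives, 2 of 8 were called higher and 2 lower with shSIRT6, and 3 higher and 2 lower with scramble, and RHEB, the GTPase that activates mTORC1, was lower by −1.275 ± 0.11 and −1.245 ± 0.11. Of 9 other RAS effectors 2 were higher and 4 lower with shSIRT6 and 1 higher and 4 lower with scramble, led by RASSF2 at −2.065 ± 0.16 and −1.59 ± 0.16. Of 3 tested genes for RAS lipid modification and transport 1 was called higher with shSIRT6, GOLGA7 of the RAS palmitoyltransferase (0.365 ± 0.10), and 0 with scramble (limma; 1 at an unadjusted p below 0.05). The GOLGA7 call was lost in 6 of 18 alternatives with shSIRT6, among them the omission of either MM1.S shSIRT6 array or of NCI-H929 shSIRT6 replicate 1 (adjusted p up to 0.124), and gained in 3 of 18 with scramble, where its adjusted p was 0.0542.

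**Figure D4:**
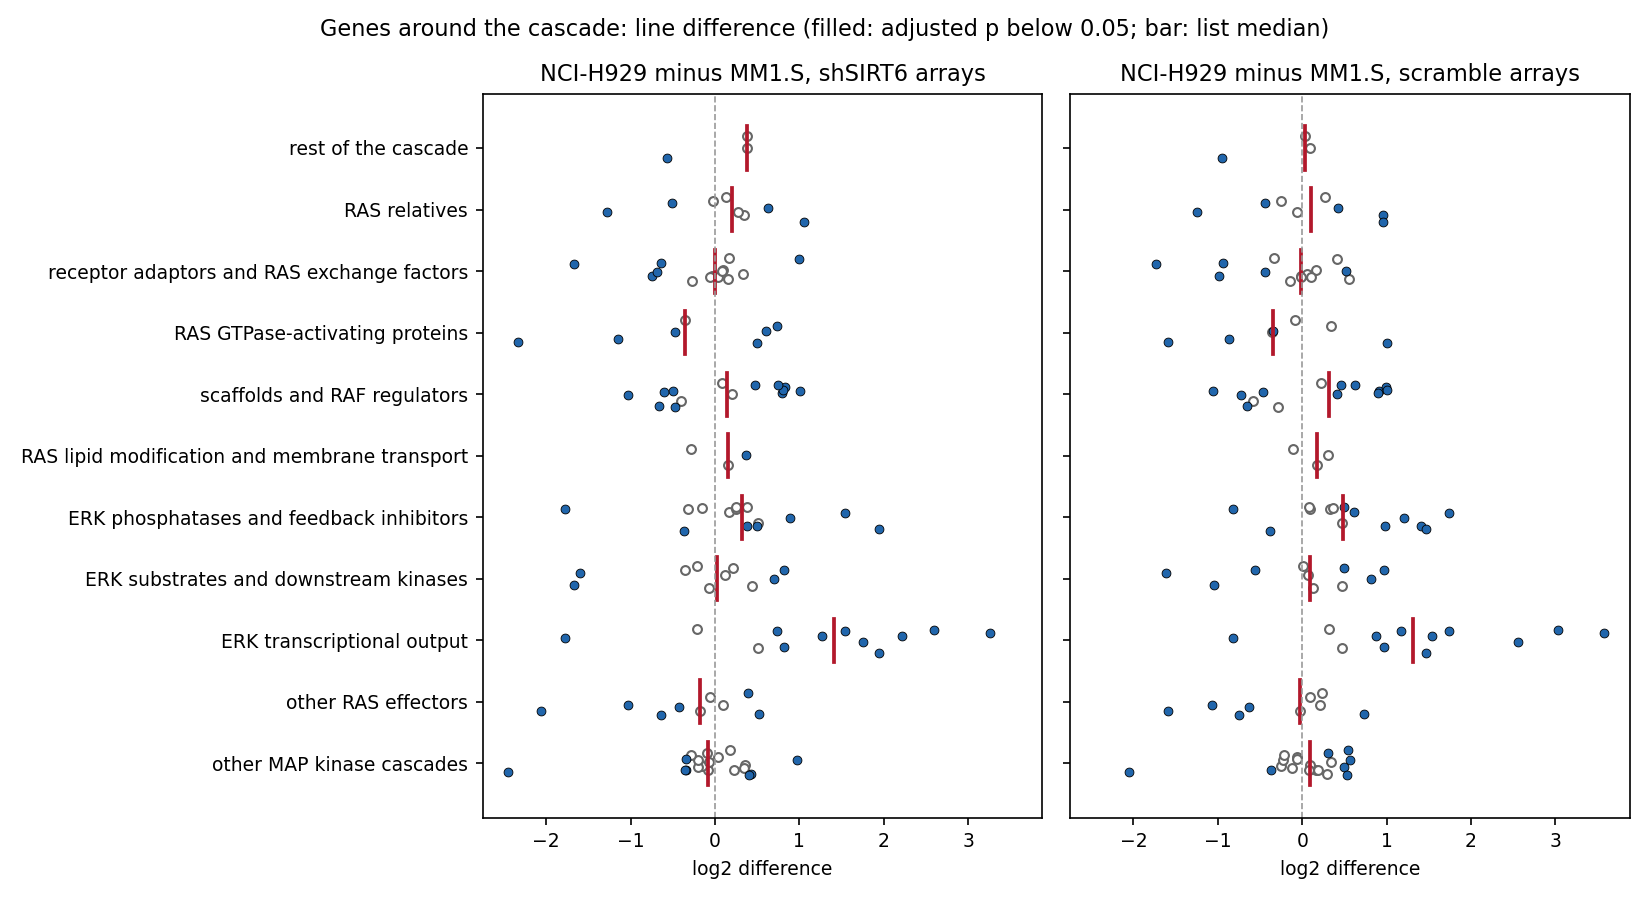
Log2 difference between the lines (horizontal axis, NCI-H929 minus MM1.S) of each tested gene of the 11 lists (rows), with shSIRT6 on the left and scramble on the right. Filled points have an adjusted p below 0.05 and red bars are list medians. ERK transcriptional output has medians of 1.41 and 1.32, with DUSP4 as its 1 called gene below 0.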

How the data were processed

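The authors deposited log2 levels of transcript clusters for 8 arrays, made by RMA in the Transcriptome Analysis Console on hg19, per the submitters' processing notes; tool versions were not given in the sources used here. Of 48226 rows, the platform annotation pairs 16098 with 1 symbol. The other 32128, with no symbol or with several, were not assigned to a gene. All 8 columns were used. Groups came from the sample titles.

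For each gene the row with the highest mean was kept, and genes above the 30th percentile of all row means (log2 3.045) were tested, 12734 in all. A model of 4 group means on all arrays was fitted in limma 3.58.1 under R 4.3.3 (4 residual and 3.43 prior degrees of freedom), with Benjamini-Hochberg adjustment over all genes tested. SE and 95% intervals are limma's. The smallest two-sided p of an exact permutation test with 2 arrays a group is 0.333. The number of arrays limits the precision.

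The cascade genes, lists and tests were chosen with earlier results of these data known. Text names the cascade genes, SIRT6, per list up to 3 called genes by lowest p (otherwise the 1 with the lowest p), and per cascade gene the 2 genes most correlated with it. Names outside this rule are RASA2 between the lines, both-construct values of genes named for one construct, CCND1 with the hairpin, and the cell type markers given by level, all chosen after their values were seen. Symbols without a row of their own in the annotation were not analysed. Upstream windows came from RefSeq (GRCh38.p14), where all 7 cascade genes matched. On simulated arrays of 12734 genes the code recovered 8.06%, 84.8% and 91.5% of changes of 0.5, 1 and 1.5 log2 in MM1.S, with 7 false calls among 133, and 8.82%, 75% and 95% in NCI-H929, with 8 among 125. Alternatives covered the filter, normalization, row choice, prior variance, arrays fitted, replicate numbers and each array left out.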

Additional observations from a re-analysis of the deposited data

Results flagged for a closer look

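MAPK3 went opposite ways with the hairpin in the 2 lines, on every array. It was higher with shSIRT6 in MM1.S (0.33) and lower with shSIRT6 in NCI-H929 (−0.215), with no overlap between the arrays of the constructs in either line. The difference of these effects, NCI-H929 minus MM1.S, was −0.545 ± 0.15 (SE), which did not pass over all genes (limma, adjusted p = 0.224, and 0.074 to 0.476 over 17 alternatives). Of all genes tested, 6.24% separated in this pattern. Leaving out single arrays kept the difference between −0.64 and −0.45. In NCI-H929 alone the hairpin difference of MAPK3 ran from −0.265 to −0.115 over 18 alternatives.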

How the results depend on the processing

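With shSIRT6 against scramble, 0 of the 5 cascade genes were called in NCI-H929, for the mean of the lines and for the difference between them, in the fit as reported and under every alternative run. In MM1.S the count was 0 except with an eBayes trend, which gave 1 (HRAS). Between the lines with shSIRT6 the count was 1 under all 18 alternatives. Between the lines with scramble it was 2 as reported and 1 after quantile or cyclic loess normalization and in a fit to those arrays alone. It was 0 when all rows of the table were tested together, and from 0 to 2 when 1 array was left out. A fit to fewer arrays has fewer degrees of freedom; for the other settings the cause was not tested.

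With the replicate number within each line as a block, the count between the lines with scramble was 0 (adjusted p = 0.0529 for HRAS and 0.0542 for MAPK3), and no other count of called cascade genes changed. The numbers do not pair the arrays as far as can be seen: same-numbered arrays deviated together with correlations of −0.041 to 0.077 over genes.

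No cascade gene that was called changed sign. Signs of uncalled hairpin differences turned in NCI-H929 under some alternatives for HRAS (2 of 18), ARAF (3), MAP2K1 (3) and MAP2K2 (2), and between the lines for MAP2K1 with scramble (2) and MAP2K2 with shSIRT6 (3). Counts over all genes depended more on the setting. In MM1.S 169 were called as reported, 0 to 953 under other settings and 0 to 84 with 1 array left out. In NCI-H929 there were 3, against 0 to 194 and 0. For the mean there were 11, against 0 to 911 and 0, and for the difference 26, against 0 to 430 and 2 to 6, with the highest of each under the trend. Between the lines they were 4823 with shSIRT6 (4209 to 8910, and 3784 to 4642) and 4875 with scramble (4590 to 9049, and 3713 to 4884), the highest when all rows were tested. Scanner intensities were not used here, so signal over background is unknown.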

Other observations

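The genes whose levels ran most like each cascade gene over the 8 arrays were listed as a description. For MAPK3 they were WASHC1 and MFGE8, with Pearson correlations of 0.990 and 0.989 over 8 arrays and among 12733 other genes. For HRAS they were MIR4756 (0.967) and STH (0.962), for ARAF MIR3187 (0.963) and ELMOD3 (0.950), for MAP2K1 SUPT7L (0.986) and ZNF280D (0.971), and for MAP2K2 GAGE2A (0.978) and SNX29P1 (0.960). None of them is a cascade gene. The 8 points share line and construct, so such values follow any gene that differs between the groups in the same order.

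Among the cascade genes themselves the correlations over the 8 arrays ran from −0.604 for MAP2K1 with MAPK3 to 0.631 for HRAS with MAP2K2. MAP2K1 and MAP2K2, which encode the 2 MEK kinases, had −0.525, and HRAS and MAPK3 had 0.059.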
